A study of Sus scrofa with 4 samples.

Results

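MicroRNAs (miRNAs) of the ventral hippocampus were compared between piglets injected with iron dextran and littermates that were not injected. The comparison uses 2 of the 4 small RNA libraries of the study, named by library as 3 (iron ventral) and 1 (control ventral). The piglets were newborn purebred Rongchang animals, a Chinese pig breed, all from a single litter and all carrying the label "wide type". The litter gave 4 females and 4 males, and 4 piglets went at random to each of the control and oxidative stress groups, with equal sex ratios. Iron dextran, an injectable complex of iron with a sugar polymer, was given to the oxidative stress group into muscle on days 3 and 4 after birth, at 200 mg. The labels state that the control group was injected with none, so no injection of the carrier alone is described. Tissue was mixed within each group and region before RNA extraction, so each side is 1 pooled library. The labels give neither the number of piglets in each pool nor their age when tissue was taken. With 1 library a side the spread between piglets was not measured, and every interval given covers counting error only.

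A miRNA is cut from a hairpin precursor as a short RNA of either arm (5p or 3p) and lowers the output of messenger RNAs that pair with its seed, the bases at positions 2 to 8. Neurons carry an abundant set of miRNAs that includes miR-9, miR-124 and miR-128, while glia, vessels, blood and epithelia each have their own marker miRNAs. Free iron promotes the formation of reactive oxygen species, and the hippocampus of newborns, which is still maturing, is known to be sensitive to both iron lack and iron excess.

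The results turn on a few mature miRNAs, whose sequences are shown so that shared seeds can be seen. The seed is in capitals. The sequences were read from the deposited table of conserved miRNAs. Except for 4 rows of the mir-8 family, each comes from a row named for pig or listing pig among its species. The miRNAs of a single cluster come first. Of these, miR-183 and miR-96-5p share the bases UGGCAC within the seed, and miR-182 shares all but the last of them.
miR-183: uAUGGCACugguagaauucacug
miR-96-5p: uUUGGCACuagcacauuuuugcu
miR-182: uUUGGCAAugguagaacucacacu
The next 3 are miR-452, which was lower in the iron library, and the miR-146 pair, whose members share a seed but not a ratio.
miR-452: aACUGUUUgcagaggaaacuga
miR-146b: uGAGAACUgaauuccauaggc
miR-146a-5p: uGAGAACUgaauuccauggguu
Abundant miRNAs with low or high ratios complete the set, and 4 members of the miR-181 family are given because they share 1 seed.
miR-7: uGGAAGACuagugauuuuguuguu
miR-335: uCAAGAGCaauaacgaaaaaug
miR-340: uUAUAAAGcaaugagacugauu
miR-181a: aACAUUCAacgcugucggugaguu
miR-181b: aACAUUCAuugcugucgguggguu
miR-181c: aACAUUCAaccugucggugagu
miR-181d-5p: aACAUUCAuuguugucgguggguu
The epithelial mir-8 family is shown under the names of the deposited rows (bta cattle, cgr hamster, mmu mouse, hsa human), of which only the miR-429 row lists pig among its species.
bta-miR-200a: uAACACUGucugguaacgauguu
cgr-miR-141: uAACACUGucugguaaagauggc
mmu-miR-200b-3p: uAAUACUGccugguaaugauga
hsa-miR-200c-3p: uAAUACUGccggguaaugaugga
mmu-miR-429-3p: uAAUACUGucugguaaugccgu

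The annotated miRNAs held 13839556 reads in the control ventral library and 12299691 in the iron ventral library, after rows that repeat the same reads (miR-9, miR-218 and miR-490) had been merged. Levels are given as CPM, each miRNA's reads brought to a common library size, after scaling with TMM, which sets the typical miRNA to the same level in all 4 libraries. A count of 0 allows up to 3 reads, which is 0.207 CPM in the control and 0.243 CPM in the iron library. The tissue label was checked against marker miRNAs. The neuronal markers miR-9, miR-124a and miR-128 stood at 202670.0, 40373 and 11446 CPM in control and at 184262, 41655 and 14615 CPM in iron, so both libraries carried the neuronal set.

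Most miRNAs had nearly the same level on both sides. Of 321 annotated miRNAs, 251 were measured, meaning that they reached 10 CPM in at least 1 of the 2 ventral libraries. The iron level was above the control level for 129 and below it for 122. The log2 ratio of iron to control had a median of 0.00, quartiles of -0.18 and 0.18, and an SD of 0.41 across miRNAs. For 192 miRNAs (76.5%) the ratio lay within 1.25-fold of 1. The counting interval (95%, exact binomial) nevertheless excluded a ratio of 1 for 194 miRNAs (77.3%), because the libraries were deep. An interval that excludes 1 therefore shows only that these 2 libraries differed by more than read sampling. A miRNA was counted as higher or lower where the levels differed by 2-fold or more and a ratio of 1 lay outside the interval. By this rule 5 of 251 were counted (1.99%), 1 as higher (0.398%) and 4 as lower (1.59%). At 1.5-fold the count was 14 (5.58%), with 4 higher (1.59%) and 10 lower (3.98%).

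The spread of ratios narrowed with abundance. Among the 70 miRNAs whose higher level was 10 to 100 CPM the log2 ratios had an SD of 0.48, and among the 100 at 100 to 1000 CPM an SD of 0.44. Among the 56 at 1000 to 10000 CPM the SD was 0.25, and among the 25 most abundant it was 0.26. No miRNA at 1000 CPM or more was counted, and these 81 miRNAs ranged from -0.79 (miR-7) to 0.76 (miR-340). The median interval reached 0.21 to either side on the log2 scale in the lowest class and 0.01 in the highest. In each class the SD was thus larger than the median reach of the interval, which itself exceeds the standard error of counting.

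**Figure D1:**
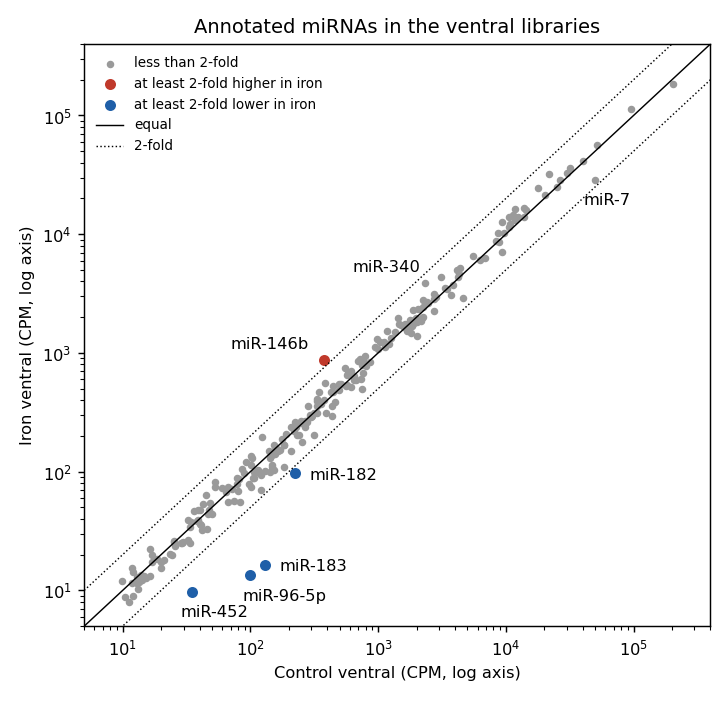
Level of each measured annotated miRNA in the control ventral library (x axis) and in the iron ventral library (y axis), both in CPM on log axes, with 1 point a miRNA and lines for equal levels and for 2-fold differences. Most points follow the line of equal levels, miR-183, miR-96-5p, miR-182 and miR-452 lie below the 2-fold band, and miR-146b lies above it.

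Of the 4 lowest ratios 3 belonged to the miR-183 cluster, miRNAs of a single transcript known from sensory epithelia such as the inner ear and retina. miR-183 had 1893 reads (131 CPM) in control ventral and 201 reads (16.3 CPM) in iron ventral. The dorsal libraries stood at 20.1 CPM (control) and 16.1 CPM (iron), so control ventral alone was high and the other 3 libraries lay close together. The ratio of iron to control in the ventral pair was 0.125 (0.107 to 0.144). miR-96-5p had 1442 reads (99.5 CPM) against 165 reads (13.4 CPM), with 16.9 and 8.92 CPM in the dorsal control and iron libraries. It showed the same order of libraries, with a ventral ratio of 0.134 (0.114 to 0.158). miR-182 had 3225 reads (223 CPM) in control and 1203 reads (97.6 CPM) in iron, beside 116 and 113 CPM in the dorsal pair. Its ratio of 0.438 (0.410 to 0.469) was nearer to 1 than those of the other two, and again control ventral was the highest of the 4 libraries. Summed over the cluster, the levels were 453 CPM in control ventral, 127 CPM in iron ventral, 153 CPM in control dorsal and 138 CPM in iron dorsal. The 2 arms that pair with miR-183 and miR-182 were too rare to compare, at 11 and 7 reads in control and 6 and 3 reads in iron.

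Epithelial miRNAs of the mir-8 family were low in the iron library in the same way. The mir-8 family, which holds miR-200 and its relatives and is known for keeping epithelial cells epithelial by repressing ZEB1 and ZEB2, is represented in the annotated table by miR-429 alone. In the table of conserved miRNAs the family summed to 2150 reads (148 CPM) in control ventral and 203 reads (16.5 CPM) in iron ventral, with 18.2 and 13.6 CPM in control and iron dorsal. The ventral ratio was 0.111 (0.0956 to 0.128), the lowest of the 187 families measured, and control ventral stood apart from the other 3 libraries. Among the members, miR-200a went from 78.5 to 5.11 CPM, a level 15.4-fold lower (11.9 to 20.1), and miR-200b from 41.5 to 2.84 CPM, 14.6-fold lower (10.4 to 21.2). Rows named miR-141 went from 15.7 to 1.95 CPM, 8.05-fold lower (5.27 to 12.8). Of their 227 reads in control and 24 in iron, 163 and 15 were in dre-miR-141-3p. Its sequence differs from the miR-200a sequence shown only in the last bases. The miR-141 row shown (cgr) had 26 and 4 reads, a ratio of 0.181 (0.0459 to 0.521). For rows named miR-200c, at 6.42 and 2.11 CPM, the level was 3.04-fold lower (1.95 to 4.90). These include dre-miR-200c-3p (13 and 0 reads), which differs from the miR-200b sequence shown only in its last base. All 5 members were thus lower in iron ventral, and the miR-200a and miR-200b intervals do not overlap that of miR-200c. The fifth, miR-429, had 65 annotated reads in control and 2 in iron, a ratio of 0.0362 (0.00429 to 0.136), and stood at 0.243 and 0.282 CPM in the dorsal pair. The family sum also holds 2 rows named for insects, dme-miR-8-3p (16 reads in control, 40 in iron) and cqu-miR-8-3p (6 and 12 reads), which were higher in iron.

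Other epithelial markers, and markers of the choroid plexus and of ciliated cells, moved less. The epithelial and endocrine mir-375 family stood at 123 CPM in control ventral and 86.0 CPM in iron ventral, and the skin and airway miRNA miR-205 at 2.21 and 1.95 CPM. The choroid plexus marker miR-204 went from 253 to 178 CPM, a log2 ratio of -0.51, while the mir-1298 family, another marker of that tissue, was at 95.9 and 101 CPM. For miR-34c, which marks cells with motile cilia, the levels were 9409 and 7028 CPM, a log2 ratio of -0.42. In the dorsal pair the log2 ratios were -0.28 for miR-204 and -0.72 for miR-34c. Of the 6 epithelial markers (miR-200a, miR-200b, miR-200c, miR-141, miR-429 and miR-375), none was at 0 and all 6 were lower in iron ventral. For miR-375, however, iron dorsal was the lowest library. Its hsa row had 48.8 and 32.5 CPM in control and iron ventral, and 38.4 and 16.3 CPM in control and iron dorsal. The part of epithelial or ventricle-lining tissue in the low miR-183 cluster was not tested. In pooled bulk tissue, fewer cells of a type and less RNA per cell cannot be told apart.

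miR-452, which is transcribed from within a GABA-A receptor subunit gene (GABRE) together with miR-224, was the remaining miRNA counted as lower. It had 502 reads (34.6 CPM) in control ventral and 120 reads (9.73 CPM) in iron ventral, a ratio of 0.281 (0.228 to 0.344). In the dorsal libraries the order was opposite, with 10.9 CPM in control and 37.5 CPM in iron. The 4 libraries thus formed a high pair, control ventral and iron dorsal, and a low pair. Its neighbour miR-224 had 6 reads in control and 1 in iron, a ratio of 0.196 (0.00426 to 1.61), whose interval includes 1.

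miR-146b was the only annotated miRNA counted as higher. It is known to dampen signalling through IRAK1 and TRAF6. The library values were 5510 reads (380.2 CPM) in control ventral and 10786 reads (875 CPM) in iron ventral, and 937 and 1019 CPM in the dorsal control and iron libraries. Control ventral was therefore the low library and the other 3 lay within 875 to 1019 CPM. The ventral ratio was 2.30 (2.23 to 2.38). miR-146a-5p, with the same seed and a different locus, had 147 CPM in control and 110.5 CPM in iron, a ratio of 0.749 (0.700 to 0.803). The 2 miRNAs differed by 1.62 on the log2 scale, the widest gap among the 26 seed groups. Summed as a family in the conserved table, mir-146 went from 501 to 945 CPM, a ratio of 1.89 (1.83 to 1.94).

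The other immune markers did not go with miR-146b. Of 6 measured members of the immune and microglia list, miR-146b included, 2 were above and 4 below a ratio of 1. Their median log2 ratio was -0.27 beside 0.00 over all measured miRNAs. Beside miR-146b only miR-155-5p lay above 1, with a ratio of 1.01 (0.928 to 1.10) whose interval includes 1. miR-142-5p, found in all blood-derived cells, stood at 653 CPM in control and 586 CPM in iron. The lymphocyte miRNA miR-150 was at 130.3 and 100.5 CPM, and the activation-induced miR-155-5p at 78.0 and 78.9 CPM. The myeloid mir-223 family had 12.2 CPM in control and 8.35 CPM in iron. Red cell miRNAs, a measure of blood left in the tissue, gave 671 and 594 CPM for miR-451 and 355 and 370.2 CPM for miR-144, and summed to 1075 CPM in control and 1019 CPM in iron.

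**Figure D2:**
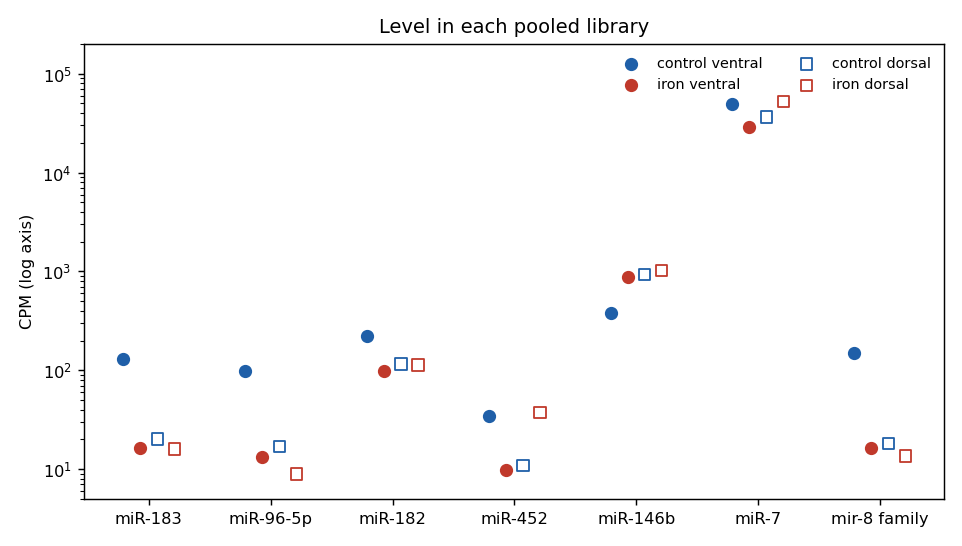
Level in CPM (log axis) of miRNAs named in the text in each of the 4 pooled libraries, with 1 point a library and no error bar because there is 1 library a group. For miR-183 and miR-96-5p control ventral lies above the other 3 libraries, for miR-146b it lies below them, and for miR-452 control ventral lies beside iron dorsal.

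Below the 2-fold rule, miR-7 made the largest difference in level under TMM scaling. This miRNA is enriched in neurons and neuroendocrine cells and is known to repress alpha-synuclein. Its reads numbered 720726 (49733 CPM) in control ventral and 353889 (28702 CPM) in iron ventral, and the dorsal libraries held 36339 CPM (control) and 52574 CPM (iron). Iron ventral was the lowest of the 4 and iron dorsal the highest, so the ratios of the 2 regions lay on opposite sides of 1. The ventral ratio was 0.577 (0.575 to 0.579), a log2 ratio of -0.79. The difference in level was -21031 CPM, larger in size than for any other annotated miRNA under this scaling. miR-7 moved from rank 4 with 5.21% of annotated reads to rank 8 with 2.88%. By share of annotated reads the drop of miR-9, given below, was larger than that of miR-7. The opposite arm of miR-7-1, summed over 4 conserved rows of nearly the same sequence, had 793 reads (54.7 CPM) in control and 724 reads (58.7 CPM) in iron. Its ratio of 1.07 (0.969 to 1.19) did not go with that of the abundant arm. Rows named miR-7a-2-3p had 0 reads in both ventral libraries, so the sum stands for miR-7-1 only.

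The change in rank of miR-7 took place within a stable group. The 10 most abundant miRNAs were the same in both libraries and held 60.2% of annotated reads in control and 58.1% in iron. miR-9, a regulator of neural progenitors and neuron differentiation, went from 21.2% to 18.5% of reads, a log2 ratio of -0.14. miR-99a, which shares a seed with miR-100, went from 9.94% to 11.5% and was 19407 CPM higher in iron. miR-181a went from rank 10 to rank 7, and miR-124a (log2 ratio 0.05) and miR-125b (0.00) hardly differed.

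Several neuronal miRNAs beside miR-7 had ratios between 1.4-fold and 1.7-fold below 1. miR-153, which also represses alpha-synuclein, had 2021 CPM in control and 1376 CPM in iron, with 1244 and 1257 CPM in the dorsal pair. Its ratio was 0.681 (0.668 to 0.694), and control ventral was the high library. miR-129a-3p went from 184 to 110.0 CPM, a ratio of 0.598 (0.560 to 0.638), and both dorsal libraries stood at 127 CPM. miR-136, of the imprinted DLK1-DIO3 locus, went from 142 to 98.9 CPM, a ratio of 0.699 (0.651 to 0.751). Its opposite arm, summed over 3 conserved rows, was far more abundant and not lower. That arm had 2375 CPM in control and 2505 CPM in iron, a ratio of 1.05 (1.04 to 1.07). The neuron-enriched list as a whole had 16 measured members, of which 6 lay above and 10 below a ratio of 1, with a median log2 ratio of -0.04. The rows of miR-129b and miR-129a-5p, both above 1, hold nearly the same reads, so with these counted once 5 of 15 lay above 1. None was counted at 2-fold, and miR-7 and miR-129a-3p were lower by at least 1.5-fold, a size that 3.98% of all measured miRNAs reached in that direction. miR-128 lay on the other side, at 11446 CPM in control and 14615 CPM in iron, a log2 ratio of 0.35.

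miR-335, from an intron of the imprinted MEST gene, was lower as well. It had 4659.9 CPM in control ventral and 2883 CPM in iron ventral, with 3567 and 3326 CPM in the dorsal pair, so that the dorsal values lay between the ventral ones. The ventral ratio was 0.619 (0.611 to 0.627). Its opposite arm, with 411 and 279 CPM, gave a ratio of 0.679 (0.651 to 0.708), so both arms were lower. The miR-708 hairpin, from an intron of the teneurin gene TENM4, behaved alike: miR-708-5p went from 753 to 501 CPM and miR-708-3p from 317 to 205 CPM, with ratios of 0.665 (0.644 to 0.686) and 0.645 (0.615 to 0.678). In the dorsal libraries miR-708-5p was higher in iron (786 CPM) than in control (544 CPM). miR-7857-3p went from 120.4 to 69.8 CPM, miR-326 from 153 to 104 CPM and miR-29b, a repressor of collagens, from 432 to 295 CPM, with log2 ratios of -0.79, -0.56 and -0.55.

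On the high side, miR-340 followed miR-146b. It had 33476 reads (2310.0 CPM) in control ventral and 48240 reads (3912 CPM) in iron ventral, a ratio of 1.69 (1.67 to 1.72). The dorsal libraries, at 4072 and 4165 CPM, lay near iron ventral, and control ventral was again the library that stood apart. The muscle miRNA miR-1 went from 123 to 196 CPM, a ratio of 1.59 (1.49 to 1.69), with 221 and 173 CPM in the dorsal pair. The 3 other measured muscle miRNAs also lay above 1, with log2 ratios of 0.37 for miR-133a-3p, 0.28 for miR-206 and 0.11 for miR-499-5p, although the interval for miR-206 included 1 (0.960 to 1.54). Of the 4 members below 10 CPM, 3 lay below 1: miR-208b at 5.24 and 2.19 CPM, a ratio of 0.418 (0.259 to 0.655), miR-499-3p at 4.14 and 2.11 CPM, a ratio of 0.509 (0.308 to 0.820), and miR-133b at 4.21 and 3.65 CPM. The fourth, miR-133a-5p, had 1.52 and 3.16 CPM. The part of muscle tissue in these levels was not tested. Among miRNAs of liver and gut, miR-192 had 52.9 CPM in control and 81.5 CPM in iron and its neighbour miR-194a had 44.7 and 64.1 CPM, with ratios of 1.54 (1.40 to 1.70) and 1.43 (1.29 to 1.59). Both were higher in iron in the dorsal pair too, at 49.7 against 98.3 CPM for miR-192 and 42.1 against 70.6 CPM for miR-194a, while the liver-specific miR-122 reached only 4.55 and 6.41 CPM in the ventral pair.

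The miR-181 family, which has roles in T cells and neurons, had 3 of 4 measured members above 1. miR-181a went from 21852 to 32169 CPM, miR-181b from 3090.5 to 4368 CPM and miR-181d-5p from 1441 to 1979.6 CPM, with ratios of 1.47 (1.47 to 1.48), 1.41 (1.40 to 1.43) and 1.37 (1.35 to 1.40). miR-181c was at 1210.1 and 1192 CPM, a ratio of 0.985 (0.964 to 1.01), although its hairpin lies beside that of miR-181d. Iron ventral held the highest level of the 4 libraries for miR-181a, miR-181b and miR-181d-5p. The opposite arm of miR-181a went from 93.8 to 136 CPM, a ratio of 1.45 (1.35 to 1.56), close to that of the main arm. The opposite arm of miR-181c went from 288 to 399 CPM, a ratio of 1.38 (1.33 to 1.44), which is nearer to miR-181d-5p than to its own main arm. As these members differ by few bases, how the authors assigned reads to them could shift single values.

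The 2 measured oligodendrocyte miRNAs were higher in the iron library. miR-219b-3p, from a family that drives oligodendrocyte differentiation, went from 9284 to 12604 CPM, a ratio of 1.36 (1.35 to 1.37). miR-338, its partner in that process, went from 979 to 1302 CPM, a ratio of 1.33 (1.30 to 1.36), and its opposite arm from 729 to 914 CPM. In the dorsal libraries both were lower in iron, at 10506 against 7976 CPM and 996 against 836 CPM. The 2 measured members of this list had a median log2 ratio of 0.43 in the ventral pair and -0.33 in the dorsal pair, and neither was counted. The remaining member, miR-219a, had 10 reads in each ventral library, below the minimum level. A conserved row also named miR-219b-3p (hsa), but of a different sequence, had 85.0 CPM in control and 88.5 CPM in iron. Its ratio of 1.04 (0.959 to 1.13) had an interval that includes 1. The astrocyte list had a median of 0.07 and the vascular list one of 0.13, with 4 of 6 and 5 of 6 measured members above 1.

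Families with paired or clustered genes gave further small shifts on the high side. miR-103, from introns of the PANK genes, went from 11697 to 16148 CPM and miR-107 from 1178 to 1542 CPM, with log2 ratios of 0.47 and 0.39. miR-27b-3p, known for its part in lipid metabolism, went from 17944 to 24421 CPM and miR-27a from 2228 to 2777 CPM, with log2 ratios of 0.44 and 0.32. For miR-27b-3p the dorsal levels were much like the ventral ones, at 17674 CPM in control and 24635 CPM in iron. miR-10b, of a Hox gene cluster, went from 384 to 559 CPM, while miR-10a-5p, with the same seed, had a log2 ratio of -0.24. miR-369 and miR-374a-3p, with log2 ratios of 0.45 and 0.44, complete the 12 highest ratios at 100 CPM or more.

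**Figure D3:**
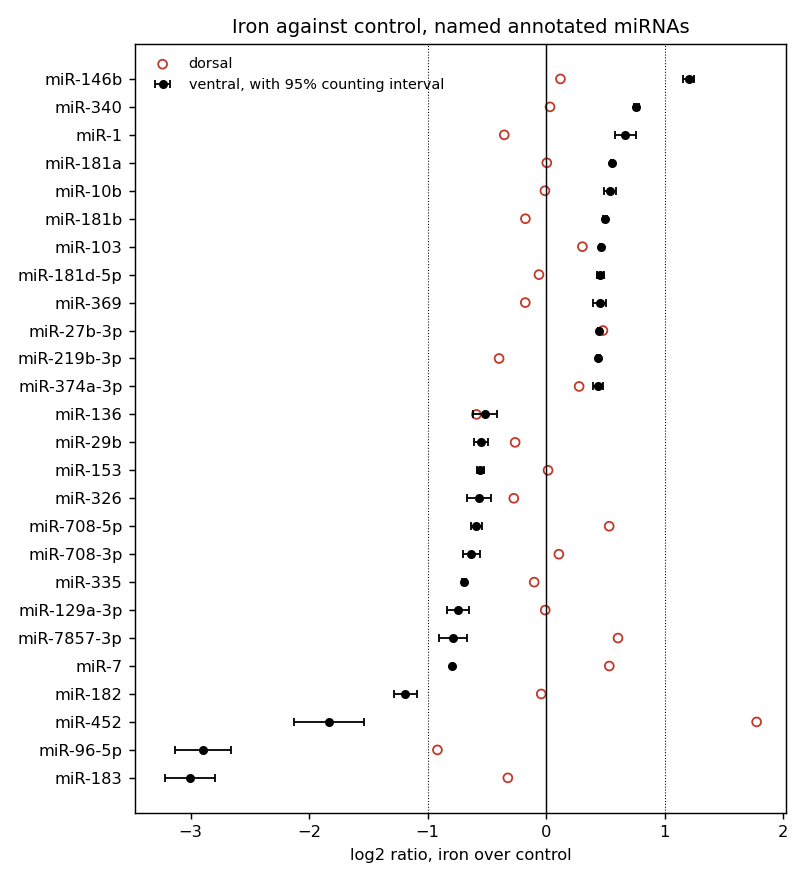
Log2 ratio of iron to control in the ventral pair, with its counting interval (95%), for the named miRNAs, beside the same ratio in the dorsal pair. Ventral values run from miR-183 (a ratio of 0.125) to miR-146b (a ratio of 2.30), and for miR-452 and miR-7 the dorsal ratio lies on the other side of 0.

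The 4 libraries show where these extremes arose. Of the 12 highest ratios among miRNAs with at least 100 CPM in 1 of the 2 ventral libraries, control ventral had the lowest level of the 4 libraries for 9 and iron ventral the highest for 5. The low side held the 12 lowest ratios at that level together with miR-96-5p and miR-452, which were counted below it. Of these 14, control ventral had the highest level for 10 and iron ventral the lowest for 9. The dorsal ratio had the same direction for 6 of the 12 and for 8 of the 14. As these miRNAs were picked for a wide gap between the 2 ventral libraries, an extreme place for either is in part given by that choice.

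Lists of miRNAs known for oxidative stress or iron gave no common direction. The oxidative stress and hypoxia list had 10 measured members of 12 annotated, 6 above and 4 below a ratio of 1, with a median log2 ratio of 0.04 and a range from -0.69 (miR-335) to 0.44 (miR-27b-3p). None was counted at 2-fold. miR-210, induced by hypoxia, stood at 142 CPM in control and 129 CPM in iron, and miR-21, induced in many kinds of stress, at 13879 and 14071 CPM. The iron handling list, miRNAs named as regulators of iron transport, storage or hepcidin, had 16 measured members of 17, 9 above and 7 below 1, with a median of 0.05. Its only counted member was miR-182, described above with its cluster. Of the others, miR-148a-3p went from 5489 to 6596 CPM, miR-152 from 2730.3 to 2825 CPM and miR-149 from 609 to 513 CPM. Scaled by total reads, the medians of these 2 lists were -0.02 and -0.01, so neither has a settled sign. Of the same 2 lists, miR-200a, miR-200c, miR-141 and miR-200b are found in the conserved table alone, where all 4 were lower in iron ventral (values above). The p53-responsive list had 6 of 8 measured members above 1 and a median of 0.17, with miR-34a at 89.8 and 97.2 CPM.

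Larger families stayed near 1. The let-7 family, which marks maturing cells, had 7 of 9 members above 1 and a median log2 ratio of 0.09, within a range from -0.25 to 0.18. The miR-30 family had 3 of 10 above 1 and a median of -0.11, and the miR-17 cluster and its paralogs, known for cell proliferation, 5 of 13 and -0.07. The 5 miR-30 members with the seed GUAAACA, which are the most abundant, had 3 above 1 and a median of 0.12. Summed over its members, miR-30 went from 104665 to 112359 CPM, so its list median does not give the direction of the family's total. The imprinted DLK1-DIO3 locus had 8 of 15 above 1 and a median of 0.00. Among groups with all or nearly all members on the high side were miR-103 and miR-107 with the miR-15 and miR-16 group (6 of 7, median 0.21), miR-221 with miR-222 (3 of 3, median 0.26) and miR-99 with miR-100 and miR-125 (4 of 5, median 0.18). Scaling by total reads lowers every log2 ratio by 0.06, and leaving miR-9 out of those totals lowers it by 0.11, so medians closer to 0 than this have no direction.

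**Figure D4:**
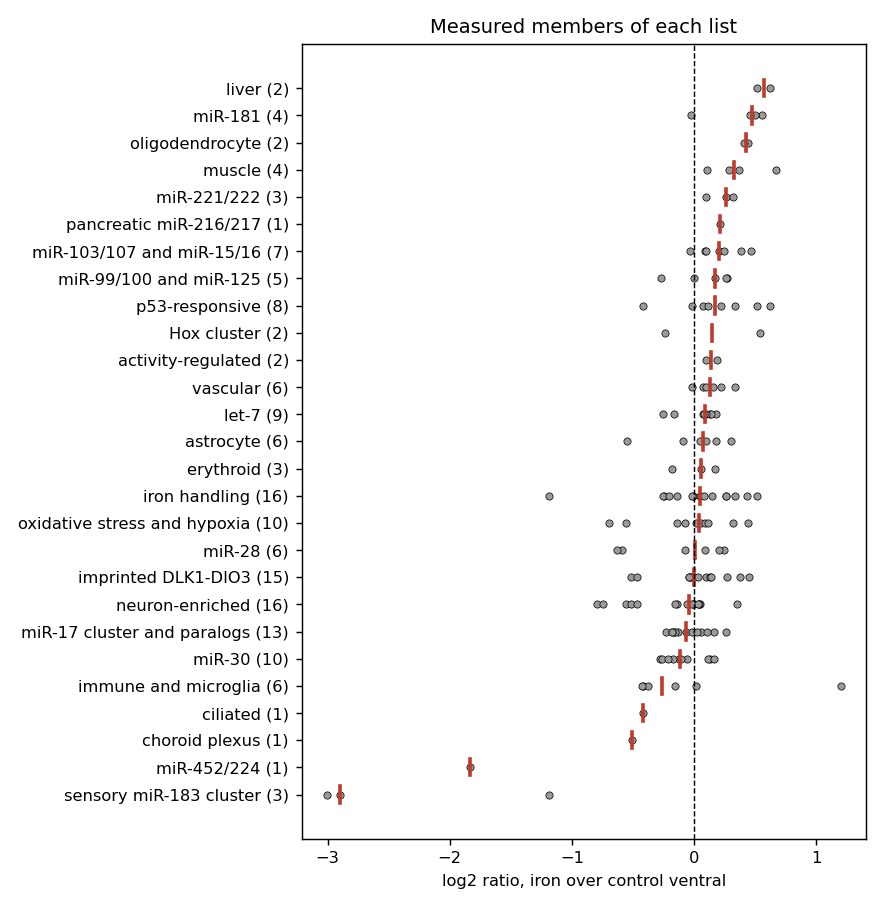
Log2 ratio of iron to control in the ventral pair for the measured members of each list, with 1 point a miRNA, a red tick at the list's median and a dashed line at the median of all measured miRNAs (0.00). The miR-183 cluster and miR-452 lie far to the low side, the miR-181 and oligodendrocyte lists lie to the high side, and the oxidative stress and iron handling lists straddle 0.

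The 2 arms of a hairpin come from a single transcript, so their ratios were set side by side. Both arms were measured for 40 hairpins. The arms lay on the same side of 1 for 24, and their log2 ratios were within 0.25 of each other for 28, with a median gap of 0.16. The widest gap was that of mir-129a, where miR-129a-5p went from 1588 to 1639 CPM and miR-129a-3p from 184 to 110.0 CPM, log2 ratios of 0.05 and -0.74. The row of miR-129a-5p holds nearly the same reads as that of miR-129b (within 1% in every library), so it sums a second hairpin that the 3p row does not. In mir-671 the 5p arm had a log2 ratio of -0.21 and the 3p arm 0.42, and in mir-455 both were positive, at 0.50 and 0.31. For miR-153 and miR-136 the opposite arms, read from the conserved table, gave log2 ratios of 0.20 and 0.08 where the named arms gave -0.55 and -0.52. For miR-34c the opposite arm gave -0.57 beside -0.42.

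**Figure D5:**
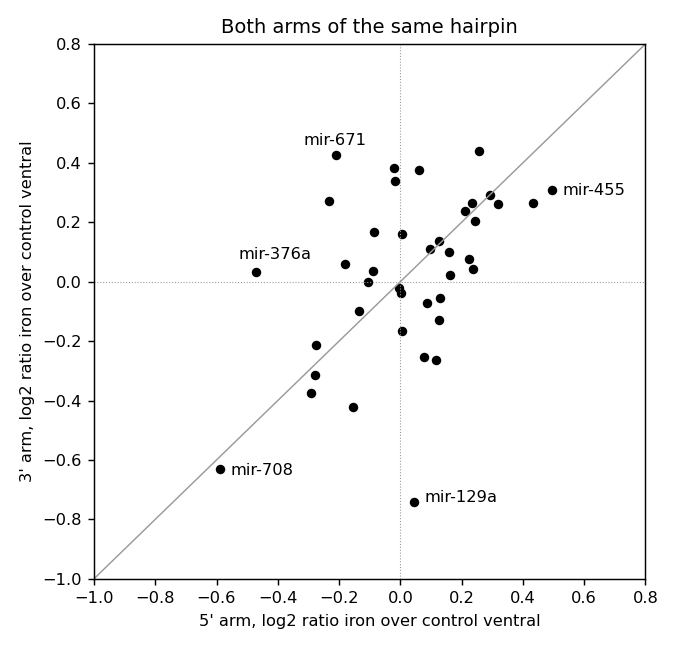
Log2 ratio of iron to control in the ventral pair for the 5p arm (x axis) and the 3p arm (y axis) of the 40 hairpins with both arms measured, with 1 point a hairpin and a line of equal ratios. Most points lie near the line, mir-708 is low in both arms, and mir-129a lies furthest from it.

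Ratios were also set side by side by seed and by gene neighbourhood. A mature sequence was found for 223 of the 251 measured miRNAs. They formed 26 groups of 2 or more with the same seed, of which 12 lay wholly on one side of 1, with a median range of 0.28 on the log2 scale within a group. Hairpins within 10000 bases of each other, by their order in the RefSeq annotation of Sscrofa11.1, formed 23 clusters. Of these, 9 lay wholly on one side of 1, and the median range was 0.42. Ranges widen with the number of members, so these values cannot be compared with the gap between 2 arms. The miR-450 and miR-542 cluster was the most even of the larger ones, with 5 of 5 members between 0.19 and 0.27. By the first base of the mature sequence, the median log2 ratio was 0.06 for U (110 miRNAs), 0.00 for A (57), -0.09 for C (44) and -0.02 for G (12).

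Families summed from the conserved table repeat much of the above, since they count the same reads. Of 187 measured families, 5 were counted as lower (2.67%) and none as higher. These were mir-8, mir-183, mir-96, mir-452 and mir-182, the first of which the annotated table lacks apart from miR-429. The highest families were mir-146, mir-340, mir-1, mir-192 and mir-216, with log2 ratios of 0.91, 0.75, 0.67, 0.60 and 0.57. The annotated miR-216, at 8.07 and 9.73 CPM, had a ratio of 1.21 (0.927 to 1.57), whose interval includes 1. At 1.5-fold 4 families were higher (2.14%) and 11 lower (5.88%), 15 in all (8.02%). Among the conserved rows, 38 pairs are reverse complements of each other with reads within 1%. The mir-3529 row, for example, mirrors the pig miR-7 row, with 93292 reads in control and 47849 in iron in each. Both strands were therefore counted there, and a family such as mir-3529 is no second measurement.

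Predicted miRNAs, which the authors inferred from the reads, lay mostly below 1 when scaled with the factors of the annotated table. Of 1052 predicted mature and star rows, 106 were measured, 31 above and 75 below a ratio of 1, with a median log2 ratio of -0.20 (mature -0.16, star -0.24). That direction depends on the settings: scaled by the reads of the predicted table alone the median was 0.22, with 63.3% of rows above 1, and with no minimum level it was 0.07. The 4 counted rows were all lower (3.77%). Some predicted rows repeat the same reads in every library, in at least 25 groups over all levels, and were not merged. Mature rows 18 and 19, for example, both had 1380 reads in control and 1022 in iron. The numbers of measured rows and the shares therefore include repeats, although none of the 4 counted rows is one. At 1.5-fold 2 rows were higher (1.89%) and 8 lower (7.55%), 10 in all (9.43%). Predicted mature row 43 had 636 reads (43.9 CPM) in control ventral and 39 reads (3.16 CPM) in iron ventral, beside 3.16 and 2.25 CPM in the dorsal pair, a ventral ratio of 0.0721 (0.0508 to 0.0996). Mature rows 333 (10.6 against 1.54 CPM) and mature row 419 (17.7 against 2.76 CPM) were low in all libraries but control ventral as well, with ratios of 0.145 (0.0850 to 0.234) and 0.156 (0.106 to 0.224). In mature row 668, at 77.1 and 29.1 CPM, the ratio was 0.378 (0.334 to 0.426), with 23.2 and 16.2 CPM in the dorsal pair. Control ventral was thus the high library for all 4. The most abundant predicted row, mature row 467, had 19798 CPM in control and 16159 CPM in iron. The 2 highest ratios were those of mature row 515 (13.5 and 22.6 CPM) and mature row 29 (39.1 and 64.1 CPM), at 1.68 (1.40 to 2.03) and 1.64 (1.47 to 1.83).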

How the data were processed

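Small RNA of each pool was sequenced on an Illumina HiSeq, per the series' design text. The submitters' processing notes name cutadapt 1.2.2 and the pig builds Sscrofa 10.2 and susScr 3. The aligner or quantifier was not given in the sources used here. Per the file headers, the authors deposited reads per row for annotated, predicted and conserved miRNAs as estimated counts. Some hold fractions, and all were rounded. Annotated rows also hold RPM computed by the authors, per the file headers, used here only as an alternative scale. Of the per-sample columns, 8 were not used. Annotated rows of shared precursors whose reads differed by no more than 0.1% in every library were merged, from 326 to 321. TMM factors were computed over the 4 libraries (edgeR 4.0.16, R 4.3.3) and applied to all 3 tables. Ratios carry exact conditional binomial (Clopper-Pearson) intervals at 95% (SciPy 1.17.1), which cover counting error only. Amplified reads are not independent molecules. No p-value was computed, since there is 1 library a side and no residual degree of freedom.

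The text names every annotated miRNA counted at 2-fold, the 12 highest and 12 lowest ratios at 100 CPM or more, the 10 most abundant, list members, and the extreme families and predicted rows. miR-671, miR-455, miR-450 and miR-542 fall outside this rule and were picked once their values were known. The comparison, the lists and this rule were chosen with earlier results of these data known. Alternatives were scaling by total reads, with and without miR-9, DESeq2 1.42.0 size factors, TMM from the ventral pair alone, the authors' RPM, unmerged rows, no minimum, a minimum of 100 CPM and a threshold of 1.5-fold.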

Additional observations from a re-analysis of the deposited data

Results flagged for a closer look

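In several miRNAs the ratio of iron to control lay on opposite sides of 1 in the ventral and the dorsal pair, a ratio of 1 outside each counting interval, and a gap of 1 or more between the log2 ratios. With 2 pooled libraries behind each ratio, the difference between regions was not tested. The values that follow are the dorsal minus the ventral log2 ratio of iron to control. Among annotated miRNAs the difference was 3.61 for miR-452 (ventral -1.83, dorsal 1.78), 1.39 for miR-7857-3p, 1.33 for miR-7 (ventral -0.79, dorsal 0.53) and 1.27 for miR-1249 (ventral -0.22, dorsal 1.05). It was 1.11 for miR-582 and 1.12 for miR-708-5p, and on the other side -1.02 for miR-1 (ventral 0.67, dorsal -0.35). The ventral interval of miR-1249 ran from -0.43 to -0.003 on the log2 scale, so it barely excluded a ratio of 1. DESeq2 size factors moved named ratios by a median of 0.02, more than that margin.

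Families summed from the conserved table gave differences of 3.62 for mir-452, 1.37 for mir-7, 1.28 for mir-7857 and 1.10 for mir-3529, whose row mirrors the reads of a miR-7 row. On the other side were mir-1271 at -2.21 (ventral 0.48, dorsal -1.73), mir-216 at -1.80, mir-592 at -1.26 and mir-1 at -1.02. For mir-216 the annotated miRNA was below the minimum level, and its ventral interval included a ratio of 1. Among predicted rows the difference was 1.02 for mature row 467 and -1.78 for mature row 515.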

How the results depend on the processing

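The 1 higher and 4 lower annotated miRNAs were the same miRNAs under scaling by total reads, DESeq2 size factors, TMM from the ventral pair, the authors' RPM, totals without miR-9 and unmerged rows. With no minimum 2 were higher and 7 lower, with a minimum of 100 CPM 2 were lower (miR-182 and miR-183), and at 1.5-fold 4 were higher and 10 lower. For families, with 5 lower, no minimum gave 3 higher, a minimum of 100 CPM gave 2 lower and 1.5-fold gave 4 higher and 11 lower. For predicted rows, with 4 lower, the counts were 15 higher and 10 lower when scaled by the reads of that table alone (a smaller total, so that 482 rows passed the minimum), 11 and 14 with no minimum, 0 lower at 100 CPM, and 2 and 8 at 1.5-fold. The median log2 ratio of predicted rows, -0.20, became 0.22 and 0.07 under the first 2 of these. Counted annotated values lie too far from a ratio of 1 for a change of scaling of this size to reverse them. Of 34 named annotated miRNAs, 32 kept the sign of the log2 ratio with total reads and 31 without miR-9 in the totals. With DESeq2 size factors 34 kept it, and 33 did so with TMM from the ventral pair, the authors' RPM or unmerged rows. The share of annotated miRNAs above a ratio of 1 was 51.4%, against 41.8% with total reads and 33.6% without miR-9 in the totals. No paired analysis was possible because each group has 1 library. Leaving out a library was not possible for the same reason. Depth limits miRNAs below 10 CPM, such as miR-224, miR-429 and miR-205, while above 100 CPM the missing replicate is the limit.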
